A study of Mus musculus with 8 samples.

Results

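The genes described here make cholesterol and fatty acids, control that synthesis or move sterols, and most are known targets or parts of the system of sterol regulatory element-binding proteins (SREBPs). They were chosen by name: 32 genes were listed and all 32 were found among the 14954 genes of the deposited table. Of these, 17 encode enzymes of the sterol branch, 8 encode enzymes of the fatty acid branch, 5 encode the SREBP system itself and 2 encode sterol transporters. RNA was sequenced from 8 cultures of neural progenitors of cortical type, differentiated from mouse embryonic stem cells of the line A2lox.Cre Bcl6. This line carries Bcl6, a transcriptional repressor, under a promoter switched on by tetracyclines, and 4 cultures received 1 µg/ml doxycycline for 24 h (Bcl6-induced, libraries 1 to 4) while 4 received DMSO (control, libraries 1 to 4). In all 8, the stem cells had been grown on irradiated mouse embryonic fibroblasts, differentiation had included cyclopamine, a hedgehog inhibitor, at 400 ng/ml, and treatment fell at day 12. The effects of Bcl6 and of doxycycline cannot be told apart, because every doxycycline culture carried the transgene, and the labels name no second line.

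Cholesterol is built in the cell from acetyl-CoA through mevalonate, squalene and lanosterol, and saturated fatty acids are built from the same acetyl-CoA and then lengthened and desaturated. When sterols in the endoplasmic reticulum are low, Scap carries the SREBPs to the Golgi, where they are cut and released to switch on these genes. When sterols are ample, the Insig proteins hold Scap and the SREBPs back. In the nervous system most cholesterol is made locally, since lipoproteins of the blood do not cross into the brain.

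In brief, the sterol branch and the SREBP system showed no called change after Bcl6 induction, and the fatty acid branch showed a call in each direction. Fasn, the fatty acid synthase, rose 1.35-fold and Fads1, a desaturase of polyunsaturated fatty acids, fell to 0.834 of its control level. A gene was called when its adjusted p was under 0.05 in limma, a linear model on log2(value + 1) fitted to all 14954 genes with Benjamini-Hochberg adjustment (two-sided). Thus 2 of the 32 genes (6.25%) were called, against 6.81% of all genes tested. Each of these calls held in 3 of the 8 fits that left out 1 library. The log2 fold change of Fasn was 0.43, and 0.24 with each library's trend on transcript length and GC content taken off. The gene called higher stands against 4.55% of all genes called higher, and the gene called lower against 2.26% called lower. The 4 induced libraries lay wholly above or wholly below the 4 controls for the same 2 genes, against 17.1% of all genes.

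**Figure D1:**
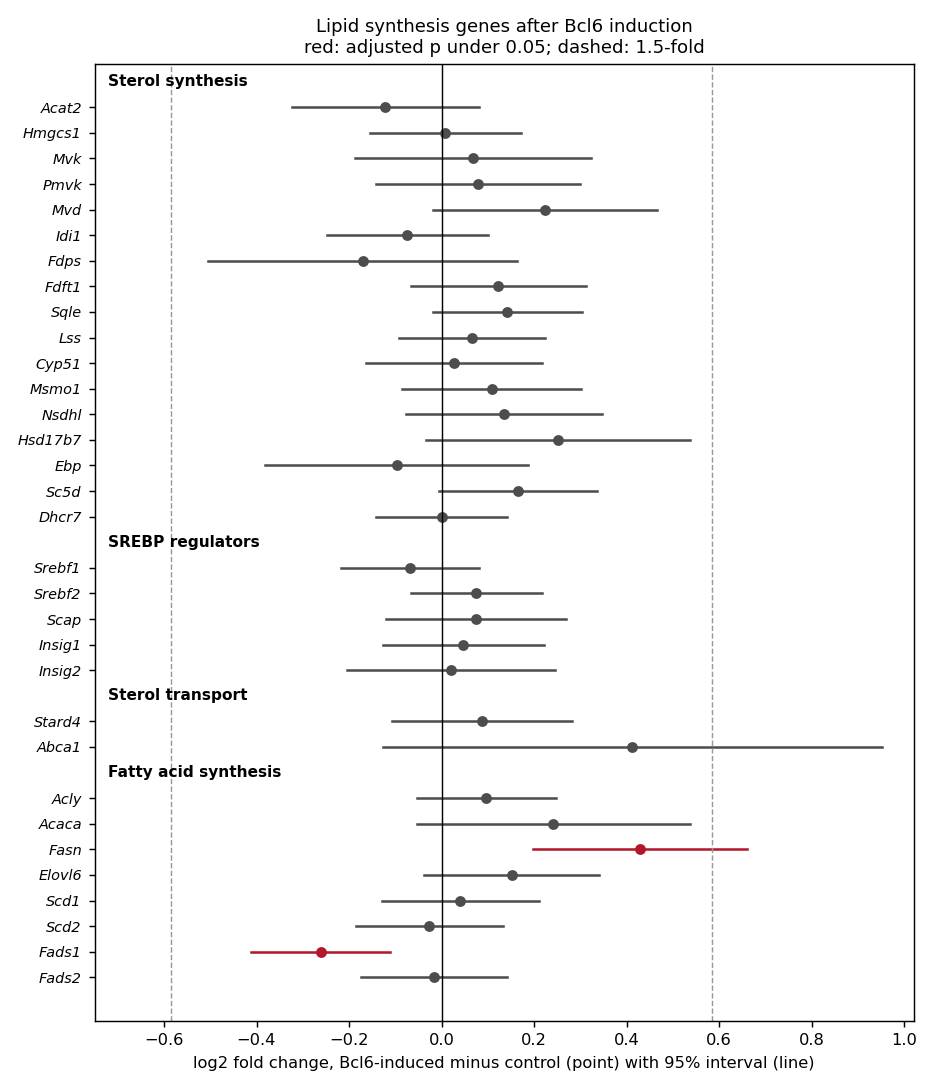
Log2 fold change, Bcl6-induced minus control, of the 32 genes in pathway order (horizontal axis, log2 units; point, estimate; line, 95% interval from limma, n = 4 libraries each). Fasn and Fads1, in red, are the called genes, and only the lines of Fasn and Abca1 reach past the dashed 1.5-fold marks.

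The promoter windows of 3 genes are shown here. Fasn is the gene that rose, and Hmgcs1 is the entry of the mevalonate pathway. Hmgcs1 also holds the only exact match to the sterol element TCACNCCAC, where N is any base. Ebp holds the only exact match to TTCNNNGAA, a palindrome of the kind bound by Bcl6. The windows run from 250 bases before to 50 bases after the transcript start, are taken from RefSeq on GRCm38.p6 and are printed on the gene's own strand. The windows are chr11:120824498-120824797 (minus strand) for Fasn, chr13:119690101-119690400 (plus strand) for Hmgcs1 and chrX:8193463-8193762 (minus strand) for Ebp. Capitals mark CCAAT or its reverse complement ATTGG, the box bound by NF-Y, a factor known to act beside the SREBPs, and also the sterol element TCACNCCAC in Hmgcs1 and the palindrome TTCNNNGAA in Ebp.
Fasn: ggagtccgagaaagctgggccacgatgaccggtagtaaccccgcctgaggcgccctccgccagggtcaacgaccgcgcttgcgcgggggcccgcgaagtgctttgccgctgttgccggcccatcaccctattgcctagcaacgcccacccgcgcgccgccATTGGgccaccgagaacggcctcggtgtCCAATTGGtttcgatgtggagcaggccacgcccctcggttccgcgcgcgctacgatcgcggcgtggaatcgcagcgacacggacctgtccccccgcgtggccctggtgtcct
Hmgcs1: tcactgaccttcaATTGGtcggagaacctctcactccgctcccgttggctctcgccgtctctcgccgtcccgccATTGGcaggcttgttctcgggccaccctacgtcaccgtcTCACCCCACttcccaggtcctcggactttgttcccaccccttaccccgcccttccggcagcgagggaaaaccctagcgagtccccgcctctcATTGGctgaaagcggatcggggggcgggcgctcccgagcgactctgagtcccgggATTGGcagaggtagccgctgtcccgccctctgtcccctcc
Ebp: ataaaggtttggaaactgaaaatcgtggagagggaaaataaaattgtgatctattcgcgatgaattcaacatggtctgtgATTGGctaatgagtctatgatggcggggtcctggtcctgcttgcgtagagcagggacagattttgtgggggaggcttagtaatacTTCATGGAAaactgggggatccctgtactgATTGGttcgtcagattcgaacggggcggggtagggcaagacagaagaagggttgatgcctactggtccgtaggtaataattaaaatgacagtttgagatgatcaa

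A window was matched for 25 of the 32 genes, and both strands were searched. Only exact matches were counted, so variant forms of an element were not looked for. The 7 without a window, which were not searched, were Fads1, the gene called lower, and Fdps, Fdft1, Sqle, Scd1, Scd2 and Stard4. The CCAAT box was present in 13 of 14 sterol enzyme genes (92.9%), 4 of 5 SREBP system genes and 2 of 5 fatty acid genes, which made 76% of the 25 genes against 43.2% of the 10859 table genes with a window. The GC box GGGCGG, bound by Sp1 and left in lower case above, was present in 84% of the 25 genes against 69.2% of the table genes. TCACNCCAC was present in Hmgcs1 only (4% of the 25 genes against 1.46% of the table genes), and TTCNNNGAA in Ebp only (4% against 7.97%). CCAAT and ATTGG overlap each other at 1 place in Fasn, and no other marked letters overlap. A match describes letters in these windows and not a bound site, and Ebp, which holds the palindrome, had a log2 fold change of -0.10 with a 95% interval from -0.38 to 0.19.

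Bcl6 averaged 392 ± 47.1 CPM (reads per 1000000 of the library's scaled total) in induced cultures and 6.49 ± 0.49 CPM in controls (SD, n = 4 each), with induced libraries between 325 and 427 CPM and controls between 6.01 and 7.12 CPM, so each library matched its label. Depth was 10.3 M to 15.02 M reads in the induced libraries and 9.42 M to 9.74 M in the controls, and every control was shallower. Cell-type markers moved between the groups: 6 of 10 progenitor markers were called lower, with a summed level of 1115 to 1457 CPM in induced libraries against 1581 to 2015 CPM in controls, and 6 of 10 neuronal markers were called higher, with 1466 to 1747 CPM against 904 to 1120 CPM. Pluripotency markers were abundant in both groups, at a summed 1856 to 2199 CPM in induced libraries and 1983 to 2225 CPM in controls, with 4 of 8 called higher and 1 lower; Pou5f1 alone averaged 443 CPM in induced cultures and 538 CPM in controls. Fibroblast markers, of which 0 of 8 were called, summed to 571 to 690 CPM in induced libraries and 526 to 678 CPM in controls. Endoderm and liver markers summed to 85.3 to 111 CPM in induced libraries and 73.2 to 98.8 CPM in controls, with 0 of 8 called and Alb not analysed here. Of 4 oligodendrocyte markers analysed, Mbp was called higher, and Sox10, Mag, Cspg4 and Olig1 were not analysed here. The part of these marker shifts in the results below was not tested, and in bulk RNA fewer cells of a type and less RNA per cell cannot be told apart.

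Control 1 deviated from the rest of its group in relation to transcript length. Computed over genes, which are no substitute for replicates, the deviation from the control mean had a Spearman rho of -0.62 with the length of the longest annotated transcript, against 0.16, 0.38 and 0.42 in controls 2, 3 and 4. The deviations of the 4 controls cancel out for each gene, so the positive values are partly forced by control 1. Among the genes described here the long transcripts of Abca1 (10262 bases), Fasn (10050 bases) and Acaca (9513 bases) lay 0.78, 0.32 and 0.47 below the control mean on the log2 scale in that library. The short transcripts of Mvk (2380 bases) and Mvd (1833 bases) lay 0.34 above it in the same library. The sterol and fatty acid medians, the called genes of the 32 and the genes named in this paragraph are therefore given with and without control 1.

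**Figure D2:**
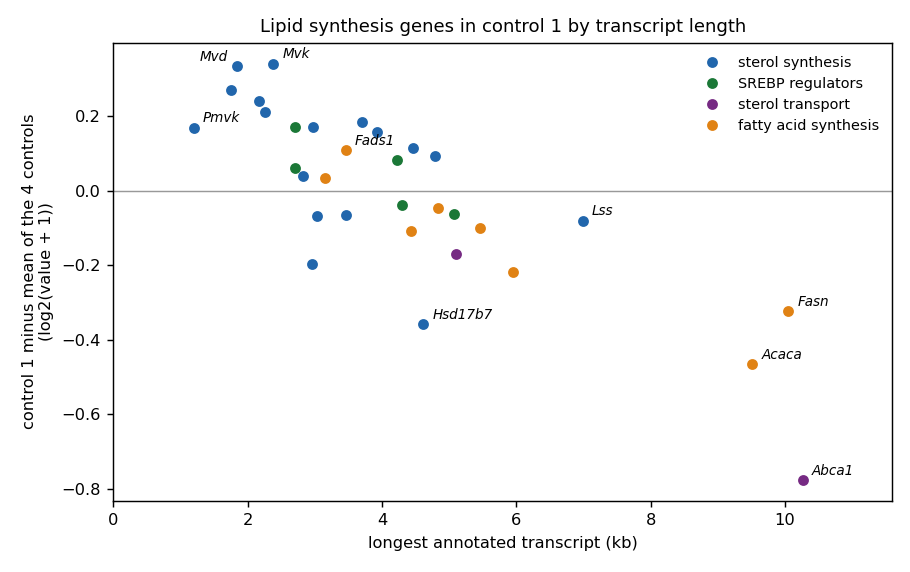
Deviation of control 1 from the mean of the 4 controls (vertical axis, log2(value + 1)) against the longest annotated transcript (horizontal axis, kb); each point is 1 of the 32 genes, coloured by group. Abca1, Acaca and Fasn, the longest, lie at -0.78, -0.47 and -0.32, while Mvk and Mvd lie at 0.34.

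No change passed the test in the sterol branch: 0 of 17 enzymes were called by limma, 0 had an unadjusted p under 0.05, and the 95% interval of all 17 lay within 1.5-fold of no change in either direction. The median log2 fold change was 0.07, against 0.03 over all genes tested, and the values ran from -0.17 (Fdps) to 0.25 (Hsd17b7). Without control 1 the median was 0.13, against 0.03 over all genes. Under median-of-ratios and upper quartile scaling it was 0.03 and 0.02, against -0.003 and -0.02 over all genes. The exceptions among the alternative settings were 1 call, Mvd, without control 1 and 1, again Mvd, when limma weighted the libraries by their quality. Those weights were lowest for control 1. The summed level of the 17 genes was 2214, 2196, 2107 and 2074 CPM in induced libraries 1 to 4, against 2183, 2194, 1905 and 2044 CPM in controls 1 to 4. The 2 groups overlapped, and control 3 was the lowest library.

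The upper steps run from acetyl-CoA to the isoprene units. Acat2, which condenses acetyl-CoA, averaged 136 ± 8.10 CPM in induced cultures and 149 ± 18.1 CPM in controls (SD, n = 4 each, as for every mean below). Hmgcs1, the HMG-CoA synthase that follows it, was the highest of the sterol enzymes per length, at 179 CPM per kb of transcript in both groups, and its log2 fold change was 0.01 (95% interval -0.15 to 0.17). The phosphorylating enzymes Mvk and Pmvk had log2 fold changes of 0.07 and 0.08, and of 0.18 and 0.13 without control 1; neither was called in either fit. Idi1, which isomerises isopentenyl diphosphate, averaged 64.1 ± 2.90 CPM in induced cultures and 67.7 ± 5.68 CPM in controls, a log2 fold change of -0.07.

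Mvd, the mevalonate diphosphate decarboxylase, was the enzyme whose call turned on a single library. It had 59.3, 61.8, 55.5 and 58.5 CPM in induced libraries 1 to 4, against 63.5, 49.4, 46.8 and 43.7 CPM in controls 1 to 4. Control 1 was the highest library of all and the other 3 controls lay below every induced library. The log2 fold change was 0.22 ± 0.11 (SE; limma adjusted p = 0.245) with all libraries and 0.33 (adjusted p = 0.0136) without control 1. With library weights it was also 0.33 (limma adjusted p = 0.0116), but control 1 had the lowest weight, 0.19, so this fit is not separate from its removal. With each library's trend on transcript length and GC content taken off, Mvd was at 0.21 (limma adjusted p = 0.0700) and not called.

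Fdps, the farnesyl diphosphate synthase at the fork to prenylated proteins, was the least abundant of the 32 genes per length, at 1.54 CPM per kb in induced cultures and 1.74 in controls. It averaged 4.56 ± 0.45 CPM in induced cultures and 5.15 ± 0.63 CPM in controls. Its 42 to 69 reads per induced library and 42 to 58 per control left the widest interval of the branch, -0.50 to 0.16 on the log2 scale. The annotation (GENCODE vM21, mm10) places 1124 exonic bases of Fdps under Gm43738, a gene model on the same strand that is not analysed here. Reads in that stretch cannot be assigned to either gene, so the level of Fdps is uncertain.

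The enzymes from squalene to lanosterol had positive log2 fold changes, none past the test. Fdft1, the squalene synthase, averaged 177 ± 12.6 CPM in induced cultures and 163 ± 16.3 CPM in controls, a log2 fold change of 0.12 with all libraries and 0.18 without control 1. Sqle, the squalene epoxidase and a known control point, averaged 206 ± 7.48 CPM in induced cultures and 187 ± 14.6 CPM in controls, a log2 fold change of 0.14 (95% interval -0.02 to 0.30; limma adjusted p = 0.262). Lss, which closes the sterol rings, and Cyp51, the lanosterol demethylase, had log2 fold changes of 0.07 and 0.03, which changed sign in 2 and 5 of the 18 other settings. Fdft1 and Cyp51 share 774 and 166 exonic bases with the genes Ctsb and Akap9 on the opposite strand, and the use of strand in counting is not given in the sources used here. Opposite-strand gene models also overlap exons of Hmgcs1, Idi1, Lss, Srebf1, Scap and Elovl6.

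The last steps, from lanosterol derivatives to cholesterol, held the enzyme with the largest fold change of the branch. Hsd17b7, a keto-reductase of the demethylation complex, had 38.9, 35.0, 43.4 and 45.9 CPM in induced libraries 1 to 4, against 26.6, 37.4, 35.8 and 37.9 CPM in controls 1 to 4. Control 1 was lowest and the ranges overlapped, since induced library 2 lay below controls 2, 3 and 4. The log2 fold change was 0.25 ± 0.13 (SE; limma adjusted p = 0.263), and 0.13 without control 1. Msmo1 and Nsdhl, which act in the same demethylation, had log2 fold changes of 0.11 and 0.13, and of 0.17 and 0.21 without control 1. Sc5d, a desaturase, averaged 63.8 ± 2.75 CPM in induced cultures and 57.0 ± 4.20 CPM in controls, and its interval began just under no change (log2 fold change 0.16, 95% interval -0.01 to 0.33; limma adjusted p = 0.224). Ebp, the sterol isomerase, averaged 28.1 ± 3.09 CPM in induced cultures and 30.2 ± 4.95 CPM in controls. Dhcr7, the terminal reductase, was at 112 ± 5.50 CPM in induced cultures and 112 ± 2.67 CPM in controls, with an interval of the log2 fold change from -0.14 to 0.14.

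**Figure D3:**
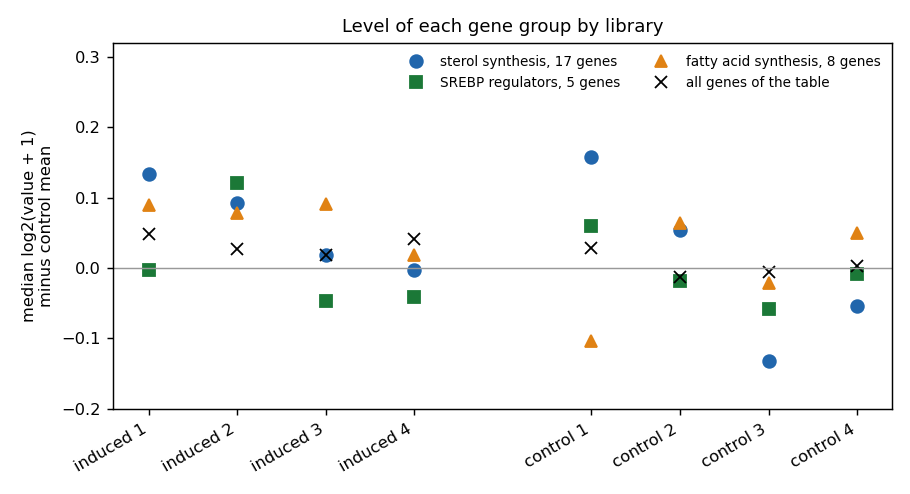
Median over the genes of each group of log2(value + 1) minus the control mean of the gene (vertical axis), by library (horizontal axis; 4 induced, then 4 control). Sterol medians run from -0.003 to 0.13 in induced libraries and from -0.13 to 0.16 in controls, so the groups overlap, and the fatty acid median is lowest in control 1, at -0.10.

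The genes that sense sterols and drive the pathway did not pass the test either: 0 of 5 were called by limma, 0 had an unadjusted p under 0.05, and the log2 fold changes lay between -0.07 and 0.07. Srebf2, which encodes the SREBP that acts mainly on sterol genes, had 476, 468, 467 and 429 CPM in induced libraries 1 to 4, against 418, 431, 441 and 457 CPM in controls 1 to 4. Induced library 4 lay among the controls, and the log2 fold change was 0.07 ± 0.06 (SE; 95% interval -0.07 to 0.22; limma adjusted p = 0.513). Srebf1, whose product acts mainly on fatty acid genes, averaged 112 ± 2.31 CPM in induced cultures and 118 ± 8.12 CPM in controls, with an interval from -0.22 to 0.08. Per length, Srebf2 stood at 90.6 CPM per kb in induced cultures and 86.0 in controls, and Srebf1 at 26.1 CPM per kb in induced cultures and 27.4 in controls. Scap, the escort of the SREBPs, had a log2 fold change of 0.07. Insig1, itself a target of SREBP and so a usual readout of its activity, averaged 135 ± 13.2 CPM in induced cultures and 131 ± 4.33 CPM in controls (log2 fold change 0.05, 95% interval -0.13 to 0.22). Insig2, the other retention protein, had a log2 fold change of 0.02. Cleavage and nuclear entry of the SREBPs are not seen by RNA levels of these genes.

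Neither sterol transporter was called. Stard4, a carrier of cholesterol between membranes, averaged 127 ± 11.5 CPM in induced cultures and 119.6 ± 10.3 CPM in controls, a log2 fold change of 0.09 with all libraries and 0.03 without control 1. Abca1, the pump that exports cholesterol to apolipoproteins and is switched on by liver X receptors, had 38.1, 32.5, 34.3 and 33.1 CPM in induced libraries 1 to 4, against 15.1, 21.9, 36.2 and 37.4 CPM in controls 1 to 4. The induced libraries were alike, and controls 3 and 4 lay within or near their range while controls 1 and 2 lay far below. Its log2 fold change of 0.41 had an interval from -0.13 to 0.95 (limma adjusted p = 0.331), the widest of the 32 genes, and was 0.15 without control 1.

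The fatty acid branch held both called genes, 2 of 8 enzymes against 6.81% of all genes, 1 in each direction. Its median log2 fold change was 0.07 with all libraries, 0.04 without control 1, and 0.03 or 0.02 when scaled by median of ratios or by the upper quartile. Fasn builds palmitate from malonyl-CoA and lies on chromosome 11 (120805846 to 120824547, minus strand, mm10; ENSMUSG00000025153). It had 593, 577, 611 and 596 CPM in induced libraries 1 to 4, against 353, 433, 482 and 514 CPM in controls 1 to 4. All induced libraries lay above all controls, and the SD was 13.9 CPM in induced cultures and 70.4 CPM in controls. The log2 fold change was 0.43 ± 0.10 (SE; 95% interval 0.20 to 0.66; limma adjusted p = 0.0359), a 1.35-fold rise. Without control 1, the lowest library, it was 0.32 (adjusted p = 0.0118), and with each library's trend on transcript length and GC content taken off it was 0.24 (adjusted p = 0.00981). The call was lost without control 2 (adjusted p = 0.106), without any 1 of the induced libraries (0.0720 to 0.104) and under median-of-ratios scaling (0.0564).

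Fads1, the delta-5 desaturase of polyunsaturated fatty acids, lies on chromosome 19 (10182888 to 10196877, plus strand, mm10; ENSMUSG00000010663). It had 196, 196, 200.2 and 199 CPM in induced libraries 1 to 4, against 256, 250.4, 223 and 222 CPM in controls 1 to 4. All induced libraries lay below all controls and were nearly equal. The log2 fold change was -0.26 ± 0.07 (SE; 95% interval -0.41 to -0.11; limma adjusted p = 0.0456), and -0.23 without control 1 (adjusted p = 0.0296). The call was lost without control 2 (adjusted p = 0.136) and without any 1 of the induced libraries (0.0876 to 0.147). With the replicate number added to the model as a block, Fads1 was not called either. Fads2, its neighbour and another desaturase of the same pathway, averaged 127 ± 5.95 CPM in induced cultures and 128 ± 8.57 CPM in controls (log2 fold change -0.02, 95% interval -0.18 to 0.14). The difference between Fads1 and Fads2 in their fold changes was not tested.

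**Figure D4:**
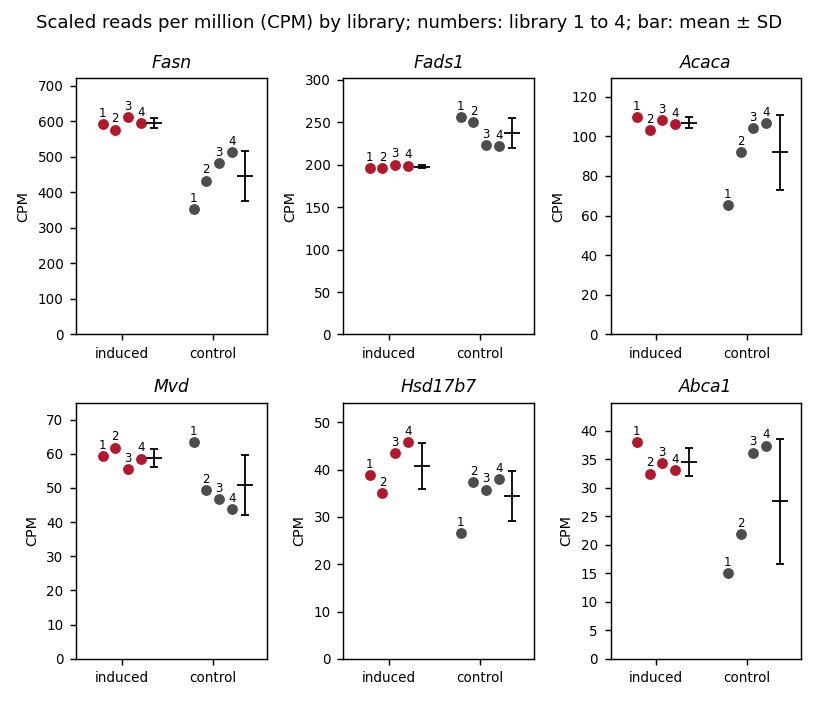
CPM by library (vertical axes from 0) for Fasn, Fads1, Acaca, Mvd, Hsd17b7 and Abca1; numbers mark libraries 1 to 4 of the induced (left) and control (right) groups, and bars give mean ± SD. Fasn lies at 577 to 611 CPM in all induced libraries and at 353 to 514 CPM in controls, and control 1 is the lowest control for Fasn, Acaca, Hsd17b7 and Abca1 but the highest for Mvd and Fads1.

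The other 6 fatty acid enzymes were not called. Acly, which cleaves citrate to supply cytosolic acetyl-CoA, averaged 604 ± 9.75 CPM in induced cultures and 566 ± 40.1 CPM in controls (log2 fold change 0.10). Acaca, the acetyl-CoA carboxylase that makes malonyl-CoA for Fasn, had 109.5, 103, 108 and 106 CPM in induced libraries 1 to 4, against 65.4, 91.9, 104 and 107 CPM in controls 1 to 4. Controls 3 and 4 lay inside the induced range and control 1 far below it, and the log2 fold change of 0.24 (limma adjusted p = 0.296) was 0.09 without control 1. Elovl6, which lengthens palmitate, had a log2 fold change of 0.15 with all libraries and 0.08 without control 1. Scd1 and Scd2, the desaturases of saturated fatty acids, had log2 fold changes of 0.04 and -0.03. They are close relatives in sequence, and how reads that fit both were counted is not given in the sources used here. Scd2 was the highest of all 32 genes per length, at 251 CPM per kb in induced cultures and 255 in controls, against 55.4 and 54.0 for Scd1.

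Across the 32 genes the libraries of a group lay close together, with a median SD within groups of 0.13 on the log2 scale against 0.18 over all genes. The 95% interval of the log2 fold change lay within 1.5-fold of no change for 30 of the 32 genes (93.8%), against 63.9% of all genes. Of the remainder, Fasn was called and Abca1 was not. Neither comparison with all genes was matched for expression level, and all genes reach down to a mean of 15.1 scaled reads. The 95% intervals are not adjusted for the number of genes, as the calls were. A change whose interval left out 0 could therefore go uncalled, and small changes may have been missed with 4 libraries a group.

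Of 12 further sterol genes given here, 1 was called higher and 0 lower, a share of 8.33% that is near the 6.81% of all genes. Mylip, a ubiquitin ligase induced by liver X receptors, had 14.6, 15.1, 13.1 and 13.4 CPM in induced libraries 1 to 4, against 9.77, 10.97, 10.2 and 10.7 CPM in controls 1 to 4. All induced libraries lay above all controls, and the log2 fold change was 0.43 ± 0.10 (SE; limma adjusted p = 0.0348). The call was lost without any 1 library except control 1 (limma adjusted p of at most 0.125) and under upper quartile scaling (0.0562).

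Of 15 further genes of fatty acid synthesis and activation analysed, 1 was called higher and 2 lower, against 4.55% of all genes called higher and 2.26% called lower. Me1, the malic enzyme that supplies NADPH to lipid synthesis, averaged 62.1 ± 4.59 CPM in induced cultures and 49.4 ± 1.35 CPM in controls (log2 fold change 0.33, limma adjusted p = 0.029). Elovl5, which lengthens polyunsaturated fatty acids in the same pathway as Fads1 and Fads2, had 169.6, 178, 175 and 157 CPM in induced libraries 1 to 4, against 236, 229, 211 and 202 CPM in controls 1 to 4. All induced libraries were lower than all controls, with a log2 fold change of -0.37 ± 0.07 (SE; limma adjusted p = 0.0165). Acsl3, which couples fatty acids to coenzyme A, averaged 197 ± 8.07 CPM in induced cultures and 252 ± 26.2 CPM in controls (log2 fold change -0.35, limma adjusted p = 0.0296), and 244 of its exonic bases are shared with Utp14b on the same strand. Each of the 3 calls was lost without control 2 and without induced library 1, and others of the 8 libraries also decided Me1 and Acsl3; the largest adjusted p without 1 library was 0.120 for Me1 (0.0536 under upper quartile scaling), 0.0641 for Elovl5 and 0.0924 for Acsl3.

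Of 11 genes of fatty acid oxidation and 8 of sterol export and liver X receptor response, 1 each was called, which at this size is near the 6.81% of all genes. Cpt1a, the enzyme that admits fatty acids to mitochondria for oxidation, was the oxidation gene called. It had 72.0, 74.7, 61.9 and 57.7 CPM in induced libraries 1 to 4, against 37.8, 40.1, 40.8 and 44.4 CPM in controls 1 to 4. The groups lay well apart, and the log2 fold change was 0.70 ± 0.10 (SE; limma adjusted p = 0.00338), a 1.63-fold rise that passed the threshold in every setting run, including each library left out. Of the export genes, Cyp46a1, the neuronal hydroxylase that turns cholesterol into an exportable form, was called lower, at 1.93 ± 0.58 CPM in induced cultures and 3.87 ± 0.91 CPM in controls (log2 fold change -0.99, limma adjusted p = 0.0432). It rested on 16 to 28 reads per induced library and 24 to 44 per control, the groups overlapped, and the call was lost without any 1 of 6 libraries, controls 1, 3 and 4 and induced libraries 1, 2 and 3 (adjusted p of at most 0.133).

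**Figure D5:**
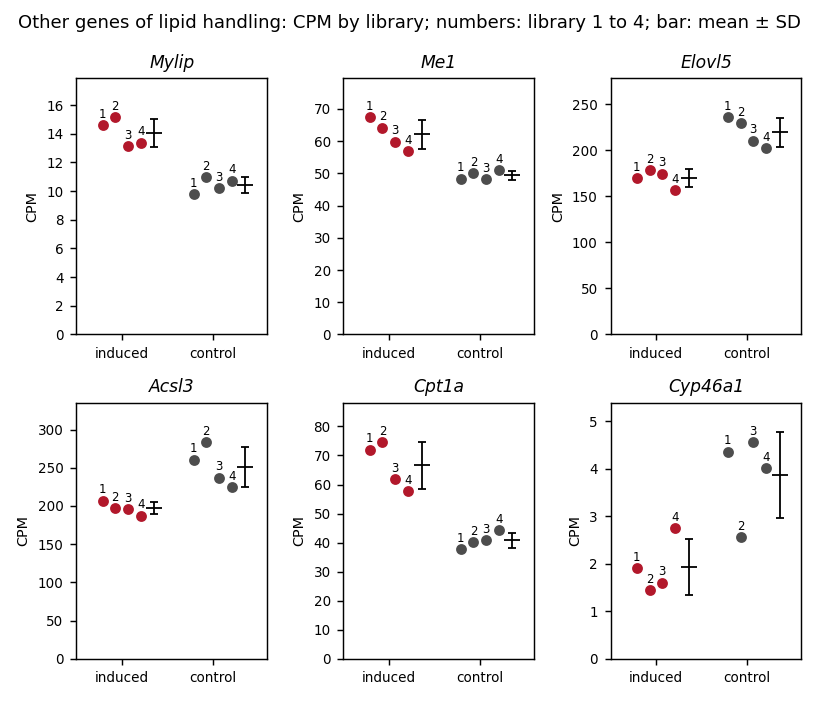
CPM by library (vertical axes from 0) for 6 lipid genes outside the 32; numbers mark libraries 1 to 4 of the induced (left) and control (right) groups, and bars give mean ± SD. Cpt1a lies at 57.7 to 74.7 CPM in induced libraries and 37.8 to 44.4 CPM in controls, while Cyp46a1, near 2 to 4 CPM, overlaps between the groups.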

How the data were processed

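The 8 libraries were prepared with a stranded poly(A) kit, per the labels' protocols. STAR 2.5.3a, HTSeq 0.9.1, edgeR 3.20.1 and the build mm10 are named in the submitters' processing notes, without roles. What the authors deposited is a score: integers totalling 19.93 M to 19.96 M per library. These lie on multiples of a step of 1.33 to 2.12 for at least 99.6% of genes. Slightly shifted steps fitted from 48.0% of genes (control 3) to 78.0% (induced library 1). The values were therefore taken as reads scaled to a common total and rounded up. Decimal commas had split the table's lines, which were rejoined and matched to the CPM the authors deposited for every gene. The values not being counts, the count test that had been planned was left out. Reads in the text are values divided by the step.

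Levels are CPM, the value over its library's total. limma 3.58.1 (R 4.3.3) was fitted to log2(value + 1) with a variance trend, no covariate and no filter; the code was tested on simulated data. The labels do not say how independent the cultures were, so a p-value reflects the spread among these libraries only. The 32 genes and all lists were chosen with earlier results of these data known. By rule, values in every library are given for called genes of the 32 and for the largest fold change in each group, and called genes of the other lists are named. Some results of these pathways are not reported here. Acaca, Mvd and Pou5f1 were picked out after their values were seen. Alternatives were the pseudocount, scaling, a filter, a replicate block, library weights, removal of trends on length and GC, and each library left out.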

Additional observations from a re-analysis of the deposited data

Results flagged for a closer look

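In 76 groups of 4 libraries, each gene's highest and lowest library was compared with the other 3 by Dixon's ratio of the gap to the range at the 95% level, and 2 libraries stood apart. Chance flags about 1 in 20 groups. Mvk, the mevalonate kinase, had 36.6 CPM in control 1, against 25.5 to 27.4 CPM in the other 3 controls. Srebf1 had 129.9 CPM in control 3, against 113 to 114 CPM in the other 3 controls. Both genes had all induced libraries below these values and neither was called.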

How the results depend on the processing

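Beside the values reported, 18 settings were run, 8 of them leaving out a library. No called value changed sign in any of them, and 11 genes that were not called, with log2 fold changes between -0.03 and 0.07, changed sign in at least 1. The sterol branch had 0 calls in all settings except 1 with library weights, and 0 to 1 when each library was left out. The fatty acid branch had 1 call under median-of-ratios scaling (Fads1), and 0 to 2 when each library was left out. The SREBP system and transporters had 0 calls in every setting. Over all genes, the 1019 calls became 1963 after removal of trends on length and GC, 1881 with that and the replicate block, and 2507 with library weights. When each library was left out the calls ran from 308 (without induced library 1) to 1697 (without control 1), with 350, 649 and 359 without induced library 2, induced library 3 and control 2. The cause was not tested. The split of 681 higher and 338 lower calls was 536 and 424 under median-of-ratios scaling and 501 and 474 under upper quartile scaling. An added setting, limma on recovered reads scaled to a common total, chosen after seeing the data, gave 1014 calls. The planned edgeR test on recovered reads was not run, and the filter at a mean of 100 scaled reads left no value for Fdps or Cyp46a1.

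Libraries with the same differentiation number had correlations of their deviations of 0.05, 0.02, -0.04 and 0.26, so the numbers were not taken to pair the cultures. Such correlations cannot exclude pairing, since deviations of single libraries, such as that of control 1 with transcript length, also enter them. With the replicate block 827 genes were called, the sterol branch had 0 calls and the fatty acid branch 1 (Fasn), since Fads1 had an adjusted p of 0.0865 by limma, and Mylip and Me1 were not called. Depth limits Fdps and Cyp46a1 most, with at most 69 and 44 reads in any library.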
